A study of Mus musculus with 2 samples.

Results

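The oxysterol-binding protein family is described here through 10 genes, Osbpl1a, Osbpl2, Osbpl3, Osbpl5, Osbpl6, Osbpl7, Osbpl8, Osbpl9, Osbpl10 and Osbpl11, taken by name from the 43026 gene columns of 2 tables of single-cell RNA counts from mouse testis. All 10 were present in both tables. The genes were grouped by family name with earlier results of these data in view, among them the lower Osbpl1a in spermatocytes of old mice, so their levels and age ratios are given as a description and carry no test.

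Proteins of this family share a lipid-binding fold that holds a sterol or a phospholipid and releases it at another membrane. Most of them sit where the endoplasmic reticulum touches the plasma membrane, endosomes, lipid droplets or the Golgi, and several trade their cargo against the phosphoinositide PI4P, which the endoplasmic reticulum phosphatase Sac1 (Sacm1l) breaks down. In the testis, Leydig cells turn cholesterol into testosterone, and spermatids rebuild their membranes and acrosome as they elongate.

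The young library came from mice of 2 months of age, and the aged library from mice of 24 months. Strain, genotype and the number of mice pooled in each were not given in the sources used here, and no treatment other than the anaesthesia was named. Testes were freed of the tunica, minced, digested with accutase and strained, and the cells were captured in microwells (BD Rhapsody). Although they are labelled as stroma cells, germ cell markers were found in most of them. The study, by its title, set out to profile expression in testicular cells at both ages.

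Filtering left 2732 young and 5691 aged cells, whose median depth was 15649.5 and 11381 counts. Both files together used 35 cell numbers in common. Clusters were called "like" a cell type from marker genes, and the 10 family members were kept out of the genes used for clustering. This gave 1087 young and 576 aged Leydig-like cells, 0 and 75 spermatogonia-like cells, 660 and 2274 spermatocyte-like cells, 464 and 723 round spermatid-like cells and 135 and 313 elongating spermatid-like cells. Of all cells, 10.0% of the young and 27.0% of the aged library stayed unnamed. The Leydig markers Cyp17a1, Cyp11a1 and their list together reached 34102 and 24480 CPM in the Leydig-like cells and at most 145 CPM in the 4 germ cell classes, where CPM is counts of a gene per 1000000 counts of the cells of a class. Protamine and transition protein transcripts, which Leydig cells should lack, stood at 791 and 277 CPM in the Leydig-like cells, so free RNA was present in both libraries. Each age has a single library, so nothing here could be checked against replicates. The 95% intervals given with levels (exact Poisson), ratios (exact conditional binomial) and shares of cells (Clopper-Pearson) cover counting error only. A ratio is aged over young, and a gene was counted as higher or lower between ages by size alone, at 1.5-fold or more, where the class held 50 or more counts of it in both libraries together.

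The members were highest in different cells. How many of them differed between stages is given further on beside the shares of all genes. Of the 4 classes that held 50 or more cells at both ages, Leydig-like cells had the most Osbpl11 and Osbpl5. Among the germ cell classes, Osbpl2 and Osbpl8 were highest in spermatogonia-like and spermatocyte-like cells. The spermatogonia-like cells had 358 CPM of Stra8, but also 1491 CPM of Sycp1 and 725 CPM of Sycp3, genes of meiosis. Aged spermatocyte-like cells had 176 and 183 CPM of these 2 genes. The name spermatogonia-like therefore does not place these cells before meiosis. Osbpl10 appeared after meiosis, Osbpl9 and Osbpl1a were highest in elongating spermatid-like cells, and Osbpl7 was high in the unnamed clusters 10 and 12, both of which carried Prm1. These levels are shares of the counts of a class. Elongating spermatid-like cells had a lower median depth than round ones, so a higher CPM there need not be a higher count per cell. Osbpl3 and Osbpl6 were close to the detection limit. Among the class ratios with 50 or more counts, the furthest from 1 was that of Osbpl1a, which was 2.94-fold lower (2.78 to 3.11) in the aged spermatocyte-like cells and within 1.5-fold in elongating spermatid-like cells.

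**Figure D1:**
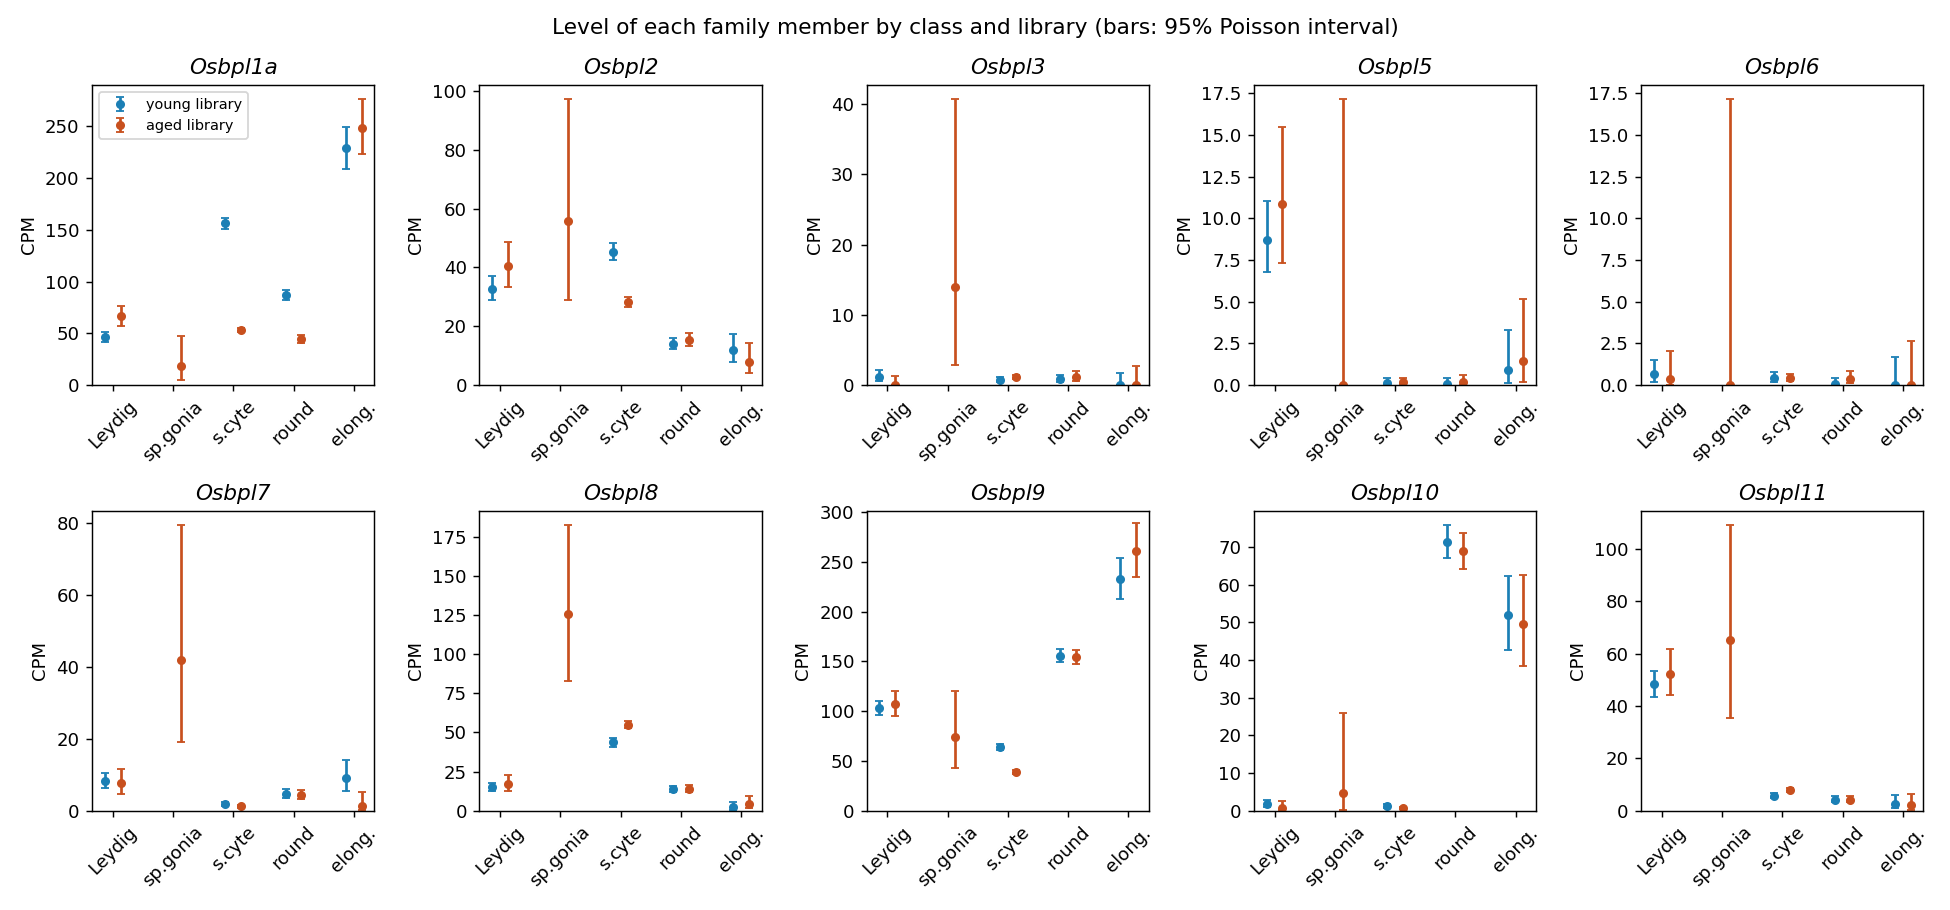
Level of each family member in CPM (vertical axis, a scale of its own in each panel) in Leydig-like, spermatogonia-like (sp.gonia), spermatocyte-like (s.cyte), round spermatid-like (round) and elongating spermatid-like (elong.) cells of the young (blue) and aged (orange) library. Points are the class sums and bars their 95% Poisson intervals. Spermatogonia-like cells came from the aged library alone, and the young and aged points of Osbpl1a stand apart at 157 and 53.2 CPM in spermatocyte-like cells.

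Osbpl1a codes for a late endosome member of the family, which can bind the small GTPase Rab7 and read the cholesterol content of the endosome membrane. The counts are per gene and do not tell products of the gene apart. The gene lies on chromosome 18 from 12755314 to 12941841 on the minus strand (GRCm38). In the young library its level was 46.5 CPM (41.9 to 51.5) in Leydig-like cells, 157 CPM (151 to 162) in spermatocyte-like cells, 87.0 CPM (82.2 to 92.0) in round spermatid-like cells and 229 CPM (209 to 250) in elongating spermatid-like cells. The aged library gave 66.4 CPM (57.2 to 76.8), 53.2 CPM (51.0 to 55.6), 44.1 CPM (40.4 to 48.0) and 249 CPM (223 to 277) in the same order, and 18.6 CPM (5.06 to 47.6) from 4 counts in the spermatogonia-like cells. The young library was thus higher in both meiotic and round spermatid classes with intervals that do not overlap, the aged library was higher in Leydig-like cells, and the intervals of the elongating class overlapped.

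The aged over young ratio of Osbpl1a was 0.340 (0.322 to 0.359) in spermatocyte-like cells, from 3359 young and 2114 aged counts. It was 0.507 (0.457 to 0.562) in round spermatid-like cells, 0.790 there with a stricter cell filter and 0.859 at a clustering resolution of 0.5. With the members allowed among the clustering genes it was 1.01, with the direction turned. Every measured member then had the same ratio as in cluster 13 alone, a round spermatid-like cluster described below. The Osbpl1a ratio was 1.09 (0.945 to 1.25) in elongating spermatid-like cells and 1.43 (1.19 to 1.71) in Leydig-like cells, or 1.54 as a mean over cells and 1.56 with free RNA subtracted. That subtraction took the same 5% in both libraries. Protamine and transition protein transcripts in Leydig-like cells stood at 11.2% (young) and 6.45% (aged) of their level over the library. Larger or unequal shares were not tried. Whether the Osbpl1a ratios differ between the classes could not be tested with 1 library per age. Young spermatocyte-like cells held 3.37 times (3.02 to 3.76) the level of young Leydig-like cells, while aged ones held 0.801 times (0.689 to 0.937) that of aged Leydig-like cells. From round to elongating spermatid-like cells the gene was higher in both libraries, by 2.63 times (2.37 to 2.92) in the young and 5.64 times (4.91 to 6.47) in the aged.

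Depth differed between the libraries, with medians of 30664.5 young and 17096 aged counts in spermatocyte-like cells. An Osbpl1a count was found in 83.3% of the young and 35.3% of the aged spermatocyte-like cells. After each cell was thinned to 2000 counts, which left out 0 young and 43 aged cells, these shares were 25% and 8.92%, and the ratio of levels was 0.337. In elongating spermatid-like cells, with medians of 13669 and 3716 counts, 95.6% of young and 55.0% of aged cells had a count. The thinned shares there were 36.3% and 39.3%, with 79 aged cells left out, so the gap in raw detection was not present at equal depth. Cyp17a1, a Leydig enzyme, had 34.0 and 6.80 CPM in the young and aged spermatocyte-like cells. The Osbpl1a ratio there was 0.333 after free RNA at 5% of the library profile was subtracted, the same share in both libraries.

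The mix of meiotic stages also differed, because cluster 2, with the most Sycp1 of the 4 spermatocyte-like clusters, held 44 of the 660 young but 772 of the 2274 aged cells. Osbpl1a was therefore compared inside each germ cell cluster. The clusters were put in order by falling Sycp3, a protein of the synaptonemal complex, and then by rising Prm1, a protamine that packs sperm DNA, an order made after the data were seen. The spermatogonia-like cluster 17, with 0 young and 75 aged cells and the most Sycp3, was not in this order. Along this order the young level went from 37.6 CPM in cluster 2 to 116, 174 and 170 CPM in clusters 6, 7 and 0 of the spermatocyte-like cells. It was 140 CPM in the unnamed cluster 11, between spermatocytes and round spermatids in its markers. In the round spermatid-like clusters 5, 9 and 13 it was 108, 66.9 and 58.3 CPM. It then stood at 132 CPM in the unnamed cluster 12, which had markers of both spermatid classes, and at 229 CPM in the elongating cluster 8. Osbpl1a thus had a high stretch in later spermatocytes, a low point in late round spermatids and a second, higher level in elongating cells.

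The aged levels in these clusters were 14.5, 45.1, 77.8 and 80.0 CPM in clusters 2, 6, 7 and 0. They were 75.0 CPM in cluster 11 and 43.3, 36.5 and 58.7 CPM in clusters 5, 9 and 13. Clusters 12 and 8 had 134 and 249 CPM. In the first 7 clusters of the order the aged library was lower, with ratios of 0.386 (0.276 to 0.549), 0.390 (0.334 to 0.455), 0.448 (0.404 to 0.497), 0.472 (0.436 to 0.510), 0.535 (0.458 to 0.625), 0.402 (0.345 to 0.467) and 0.545 (0.447 to 0.662). In the last 3 the ratio was 1.01 (0.791 to 1.29), 1.02 (0.862 to 1.20) and 1.09. The 3 round spermatid-like clusters therefore split, 2 with ratios of 0.402 and 0.545 and 1 with a ratio of 1.01. The class ratio of 0.507 rests on how many cells each of them gives.

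Weighted equally over its clusters, the spermatocyte-like ratio of Osbpl1a was 0.438 in place of 0.340. Past 1.5-fold, Osbpl1a was the 1 lower member of 5 measured in each of clusters 0, 6 and 7, and Osbpl1a and Osbpl2 were the 2 of 5 in cluster 2. Of all measured genes, 5.13% were lower in cluster 2, 2.87% in cluster 6, 2.62% in cluster 7, 3.62% in cluster 0, 2.34% in cluster 11, 2.88% in cluster 5, 2.48% in cluster 9, 2.07% in cluster 13, 2.61% in cluster 12 and 10.2% in cluster 8. The shares of genes higher in the same order were 6.26%, 2.8%, 2.54%, 1.96%, 3.19%, 3.47%, 2.53%, 3.07%, 2.88% and 2.82%. Osbpl2, at 1.60 (0.872 to 3.06) from 17 and 34 counts, was higher in cluster 12.

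**Figure D2:**
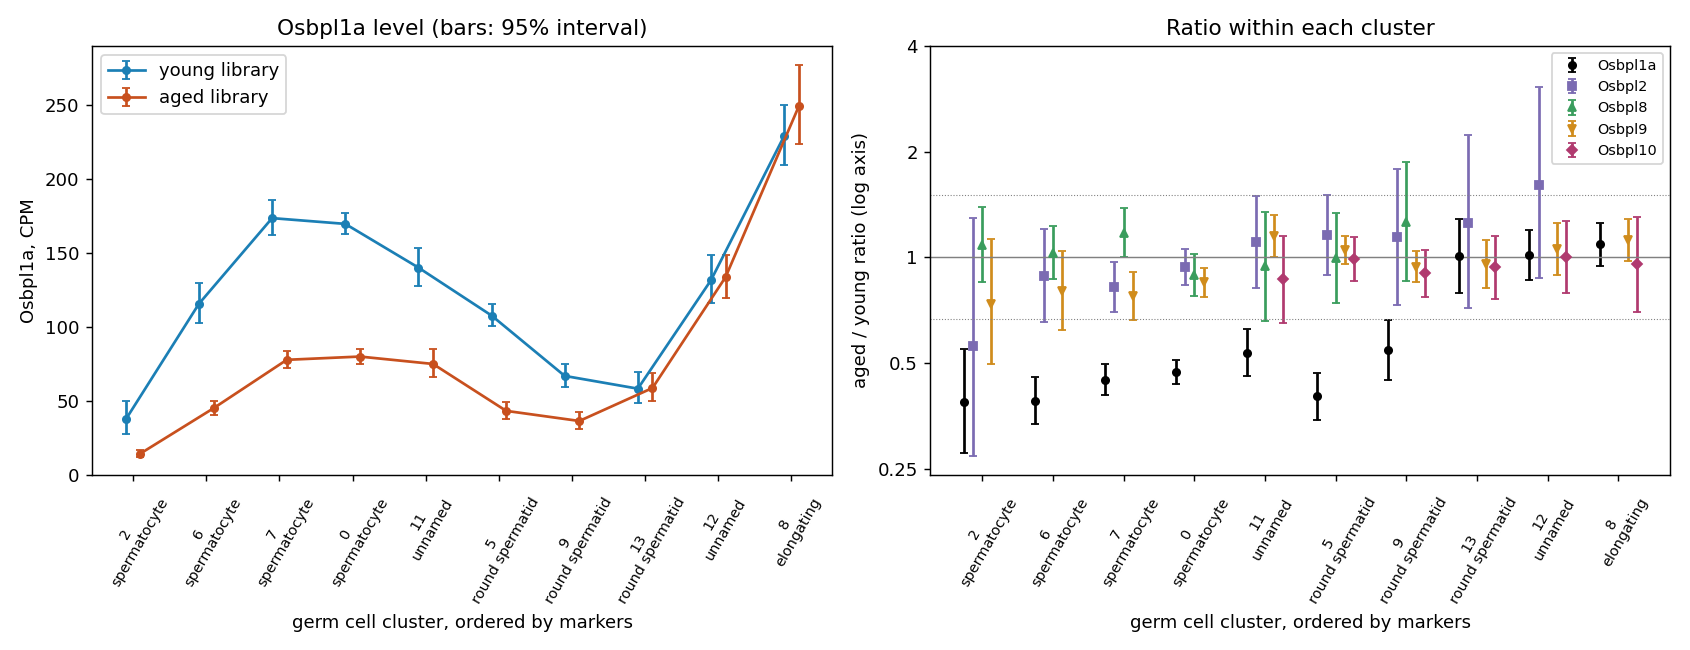
Left, Osbpl1a in CPM (vertical axis) in 10 germ cell clusters ordered by Sycp3 and Prm1 (horizontal axis), young library in blue and aged in orange, with 95% Poisson intervals. Right, aged over young ratio on a log axis in the same clusters for 5 members, drawn where the pair had 50 or more counts, with 95% intervals and dotted lines at 1.5-fold. Osbpl1a lies between 0.386 and 0.545 in the first 7 clusters and between 1.01 and 1.09 in the last 3.

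Within the aged meiotic clusters Osbpl1a was spread unevenly over the cells. In cluster 7, 15 of 128 young cells had 0 counts and 79 had 5 or more. Of the 370 aged cells, 167 had 0 counts and 52 had 5 or more. In cluster 0, 56 of 415 young and 399 of 706 aged cells had 0 counts, while 219 young and 61 aged cells had 5 or more. Many aged cells thus had none beside a smaller number with several, while most young cells had several.

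This was looked at again in cells with 10000 to 25000 counts only, a range chosen after the data were seen. In cluster 0, 81.5% (72.1 to 88.9) of 92 young and 45.3% (41.2 to 49.4) of 583 aged cells of that range had an Osbpl1a count, at median depths of 22080 and 16602. The Fano factor, the variance of the counts per cell over their mean, is 1 for pure counting noise. In the aged cells of cluster 0 it was 3.13 at a mean of 1.32 counts per cell, above that of all 2664 genes with a mean within 2-fold, whose median was 1.12. In aged cells of clusters 6 and 7 it was 2.28 and 2.73, above 99.9% of 3148 and 99.9% of 2850 such genes. Young cells of cluster 0 had 2.10, above 99.7% of 2113 genes. In aged cells of the round spermatid-like clusters 5, 9 and 13 it was 1.79, 1.5 and 1.10, above 99.8%, 98.2% and 44.9% of like genes. In cluster 12 it was 2.01 in 39 young and 1.35 in 107 aged cells, and in young cells of the elongating cluster 8 it was 1.37, above 32.4% of like genes. In the same aged cells of cluster 0 the Fano factor was 1.27 for Osbpl2 (above 97.1% of like genes), 1.05 for Osbpl8 and 1.17 for Osbpl9. In cluster 0 the spread of Osbpl1a was thus wide in both libraries, and in the aged cells it was above that of the other 3 measured members. These comparisons are between genes of the same cells and are not tests.

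**Figure D3:**
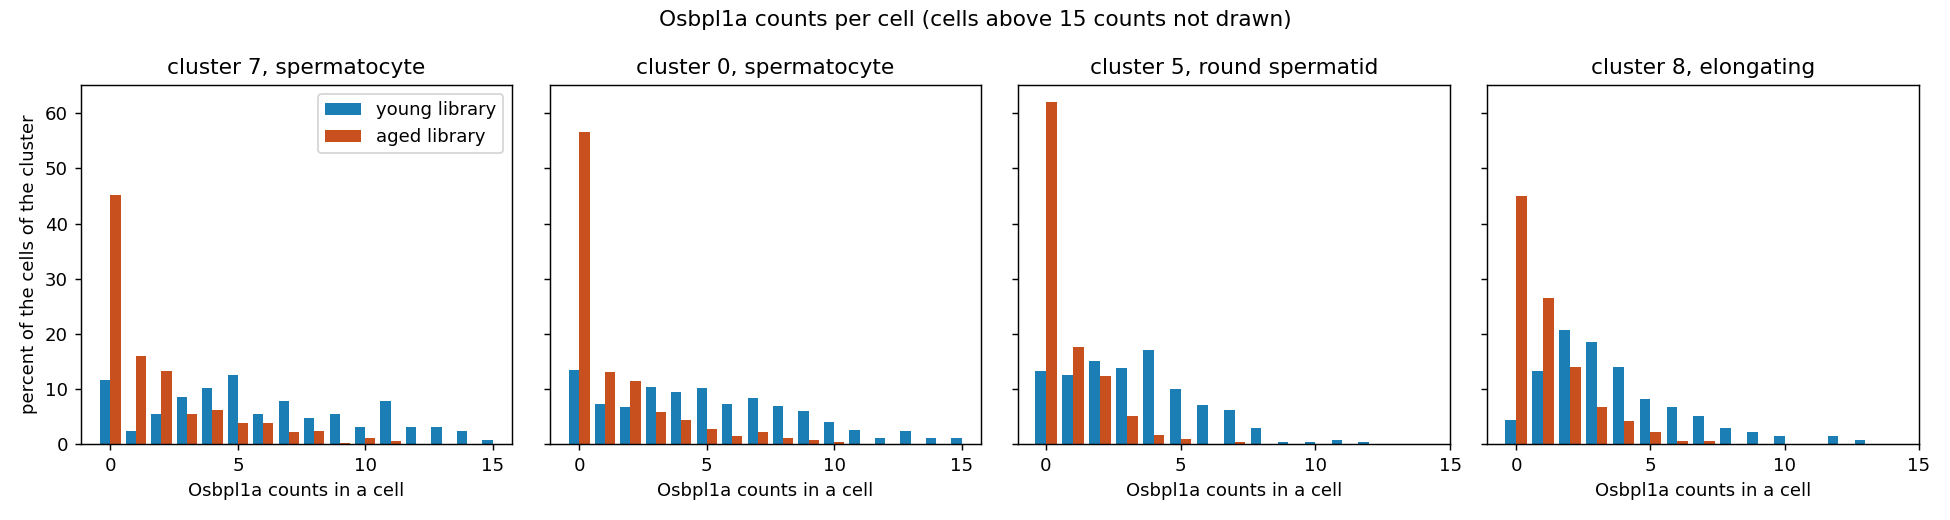
Share of cells in percent (vertical axis) with each number of Osbpl1a counts (horizontal axis, up to 15) in 2 spermatocyte-like clusters, 1 round spermatid-like cluster and the elongating spermatid-like cluster, young in blue and aged in orange. Cells are not thinned, so the lower depth of the aged library is part of the picture. The bar at 0 holds 11.7% of young and 45.1% of aged cells in cluster 7, and 13.5% and 56.5% in cluster 0.

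Osbpl2 codes for a short member without the membrane-targeting PH domain, which moves cholesterol to the plasma membrane. It lies on chromosome 2 from 180119306 to 180162680 on the plus strand. In Leydig-like cells it had 32.7 CPM (28.9 to 37.0) at the young and 40.4 CPM (33.3 to 48.7) at the old age, and in spermatogonia-like cells 55.7 CPM (28.8 to 97.4) from 12 counts. Its level was 45.2 and 28.2 CPM in spermatocyte-like cells, 14 and 15.4 CPM in round spermatid-like cells and 11.9 and 7.89 CPM in elongating spermatid-like cells. Osbpl2 was thus higher in meiotic than in later germ cells in both libraries. Among the spermatocyte-like clusters it was highest in 7 and 0, with 7.51 and 4.19 CPM in cluster 2, 23.0 and 20.3 CPM in cluster 6, 51.4 and 42.3 CPM in cluster 7 and 50.9 and 47.7 CPM in cluster 0.

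The Osbpl2 ratio over all spermatocyte-like cells was 0.624 (0.572 to 0.681), past the 1.5-fold limit. Inside the clusters it was 0.938 (0.835 to 1.05) in cluster 0, 0.822 (0.698 to 0.971) in cluster 7, 0.883 (0.654 to 1.21) in cluster 6 and 0.558 (0.271 to 1.29), from 9 young and 48 aged counts, in cluster 2. With the 4 clusters weighted equally it was 0.862, within the limit.

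The promoter of Osbpl2, chr2:180119056-180119355 on the plus strand (RefSeq, GRCm38.p6), is shown because it holds the SF-1 core letters. It runs from 250 bases before to 50 after the start of transcription, and the capitals mark the match. SF-1 is the nuclear receptor that controls steroid-making genes in Leydig cells. A match to these letters is a description and not a binding site.
Osbpl2: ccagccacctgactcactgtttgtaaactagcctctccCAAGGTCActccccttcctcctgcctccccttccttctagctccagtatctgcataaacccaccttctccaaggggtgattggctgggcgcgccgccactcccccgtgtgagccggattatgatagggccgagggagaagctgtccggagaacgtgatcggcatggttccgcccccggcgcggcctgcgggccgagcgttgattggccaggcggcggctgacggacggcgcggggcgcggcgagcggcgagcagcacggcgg

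Promoters from the RefSeq table were used for 8 of the 10 members, with 12 start sites in all. Each was searched on both strands for the full cAMP response element TGACGTCA, which 1.79% of all 32851 mouse promoters in the table hold, the RFX core GTTGCC (12.5%), the SF-1 core CAAGGTCA (1.56%) and the sterol response element TCACNCCAC (1.24%). A match to the cAMP response element was found in Osbpl9, to the RFX core in Osbpl7 and to the SF-1 core in Osbpl2. The sterol response element letters were in none of the 12 windows. Osbpl1a was left out of this search, and no promoter entry was used for Osbpl10, so nothing is said of these members. Each of the 3 matched windows held 1 match, so no motif overlapped another.

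Osbpl8 and Osbpl5 code for members anchored in the endoplasmic reticulum, which carry phosphatidylserine to the plasma membrane against PI4P. Osbpl8 lies on chromosome 10 from 111164752 to 111297249 on the plus strand. It had 15 CPM (12.5 to 18) in young and 17.0 CPM (12.5 to 22.6) in aged Leydig-like cells, and 125 CPM (82.6 to 182) from 27 counts in the aged spermatogonia-like cells. Its level was 43.7 CPM (41.0 to 46.6) and 54.9 CPM (52.6 to 57.2) in spermatocyte-like cells, 13.6 and 14 CPM in round and 2.29 and 4.31 CPM in elongating spermatid-like cells. Osbpl8 was thus highest in the spermatogonia-like cells, which the aged library alone held. In both libraries it was lower in each class from spermatocyte-like to elongating spermatid-like cells.

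Along the ordered clusters the young level of Osbpl8 was 61.8, 66.6, 47.3 and 36.0 CPM in clusters 2, 6, 7 and 0, and the aged level 66.8, 68.7, 55.6 and 32.1 CPM. Its ratio over all spermatocyte-like cells was 1.25 (1.16 to 1.36), and 0.891 to 1.17 in the 4 clusters. Its round spermatid-like level was 0.311 times (0.264 to 0.363) the spermatocyte-like level in the young and 0.255 times (0.217 to 0.298) in the aged library. Osbpl5, on chromosome 7 from 143688762 to 143756985 on the minus strand, behaved differently. It had 8.72 CPM (6.78 to 11) in young and 10.8 CPM (7.31 to 15.5) in aged Leydig-like cells, and fewer than 10 counts in each germ cell class of each library. Young spermatocyte-like cells had 0.0160 times (0.00323 to 0.0489) the Osbpl5 level of Leydig-like cells, from 3 and 69 counts. The highest Osbpl5 levels of any named class were in stromal fibroblast-like cells, at 129 CPM (62.0 to 238) in 17 young and 59.6 CPM (30.8 to 104) in 130 aged cells, from 10 and 12 counts.

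Osbpl9, Osbpl10 and Osbpl11 code for members of the Golgi and endosome contact sites, where the Osbpl9 product can pair with those of the other 2. Osbpl9 lies on chromosome 4 from 109061145 to 109202272 on the minus strand. It had 103 CPM (95.9 to 110) in young and 107 CPM (95.4 to 120) in aged Leydig-like cells, and 74.3 CPM (42.5 to 121) in spermatogonia-like cells. In spermatocyte-like cells the values were 64.0 and 38.8 CPM, in round spermatid-like cells 156 CPM (149 to 162) and 154 CPM (147 to 161), and in elongating spermatid-like cells 232 CPM (212 to 253) and 260 CPM (234 to 289). Osbpl9 was thus low in meiosis and higher after it, by 2.43 times (2.27 to 2.60) in the young and 3.97 times (3.71 to 4.25) in the aged library from spermatocyte-like to round spermatid-like cells.

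The Osbpl9 ratio over all spermatocyte-like cells was 0.607 (0.564 to 0.653), past the limit. Inside clusters 2, 6, 7 and 0 it was 0.736, 0.803, 0.777 and 0.848, and with equal weights 0.805, so no cluster alone passed 1.5-fold. The gene climbed along the ordered clusters, from 24.2 and 17.8 CPM in cluster 2 to 76.5 and 64.9 CPM in cluster 0 and 173 and 163 CPM in cluster 9, with 139 and 133 CPM in cluster 13, 123 and 129 CPM in cluster 12 and the highest levels in cluster 8. Its 3′ end overlaps Nrd1 on the opposite strand, which had 21532 and 25495 counts. Whether counting used strand was not given in the sources used here, and without strand reads of the overlap cannot be told apart.

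The first promoter of Osbpl9, chr4:109202223-109202522 on the minus strand (RefSeq, GRCm38.p6), is shown because it holds the letters of the full cAMP response element. These are in capitals and start 19 bases after the start of transcription. CREM is the factor of that element best known in spermatids. A part of this element in the level of Osbpl9 was not tested.
Osbpl9: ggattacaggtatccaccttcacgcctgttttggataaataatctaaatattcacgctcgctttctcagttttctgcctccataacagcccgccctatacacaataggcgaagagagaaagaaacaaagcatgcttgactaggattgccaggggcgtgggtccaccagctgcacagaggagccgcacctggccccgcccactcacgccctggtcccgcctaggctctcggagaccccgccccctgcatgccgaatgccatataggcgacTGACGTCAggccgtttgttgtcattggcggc

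Osbpl10, whose product brings phosphatidylserine to the Golgi, lies on chromosome 9 from 114978569 to 115232225 on the plus strand. It had 1.77 CPM (0.967 to 2.97) in young and 0.722 CPM (0.0875 to 2.61) in aged Leydig-like cells. Spermatocyte-like cells gave 1.21 and 0.705 CPM, round spermatid-like cells 71.3 CPM (66.9 to 75.8) and 68.8 CPM (64.2 to 73.7), and elongating spermatid-like cells 51.9 and 49.5 CPM. Osbpl10 was therefore near its Leydig-like level in spermatocyte-like cells and high from round spermatids on. The round spermatid-like level was 58.8 times (39.9 to 90.5) the spermatocyte-like level in the young and 97.6 times (67.0 to 148) in the aged library.

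The step lay in the unnamed cluster 11, at 32.4 (young) and 28.1 CPM (aged), between 1.09 and 1.32 CPM in cluster 0 and 62.8 and 62.0 CPM in cluster 5. An Osbpl10 count was present in 85.3% of young and 64.5% of aged round spermatid-like cells, where the medians were 29258 and 16485 counts per cell. In Leydig-like cells, with medians of 6938 and 4752 counts, the shares were 1.29% and 0.347%. At 2000 counts per cell the round spermatid-like shares were 14.2% and 13.5%, and the Leydig-like shares 0.368% and 0.191%. The Osbpl10 ratio was 0.966 (0.880 to 1.06) in round and 0.955 (0.697 to 1.30) in elongating spermatid-like cells. In spermatocyte-like cells the ratio of 0.582 (0.329 to 1.03) came from 26 and 28 counts and its interval includes 1. The locus also holds Rps27rt on the opposite strand, with 7245 and 7136 counts, Gm4665 on the opposite strand, with 456 and 401 counts, and Gm27002 in an intron, with 160 and 162.

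Osbpl11, also of the Golgi and late endosome, lies on chromosome 16 from 33185071 to 33243312 on the plus strand. It had 48.3 CPM (43.5 to 53.3) in young and 52.4 CPM (44.2 to 61.6) in aged Leydig-like cells, and 65.0 CPM (35.5 to 109) from 14 counts in spermatogonia-like cells. In spermatocyte-like cells the level was 5.69 and 7.93 CPM, in round spermatid-like cells 4.24 and 4.25 CPM, and in elongating spermatid-like cells 2.75 and 2.15 CPM. The unnamed cluster 14, with macrophage and Leydig markers, had 61.7 and 64.1 CPM. Osbpl11 was thus lower in spermatocytes and spermatids than in Leydig-like cells, and spermatocyte-like cells had 0.118 times (0.0953 to 0.145) its Leydig-like level in the young and 0.152 times (0.124 to 0.186) in the aged library. Cluster 2 had the most among the spermatocyte-like clusters, at 19.2 and 13.7 CPM.

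**Figure D4:**
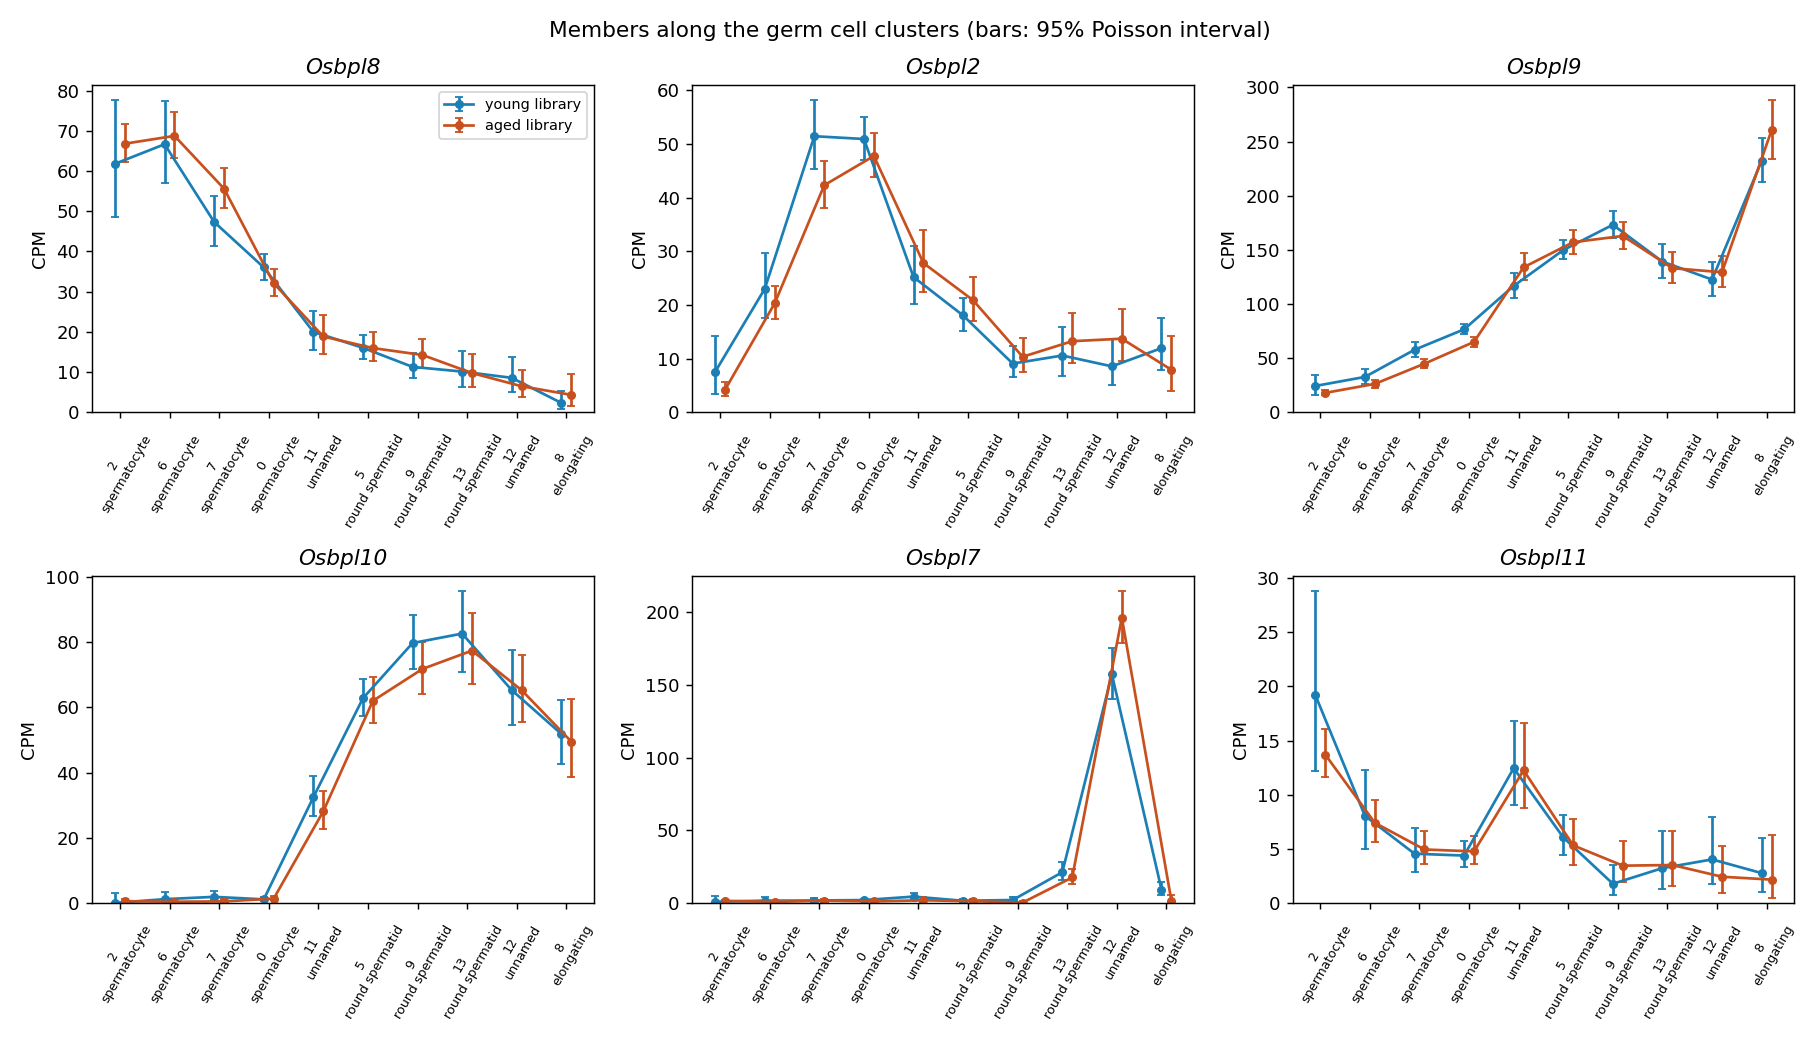
Level in CPM (vertical axis, a scale of its own in each panel) of 6 members in 10 germ cell clusters ordered by Sycp3 and Prm1 (horizontal axis), young library in blue and aged in orange, with 95% Poisson intervals. Osbpl8 is highest at the left, Osbpl2 in clusters 7 and 0, Osbpl10 from cluster 5 on, Osbpl7 in cluster 12 and Osbpl9 in cluster 8, in both libraries.

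Osbpl3, Osbpl6 and Osbpl7 form 1 subfamily, whose members have been placed at contacts of the endoplasmic reticulum with the plasma membrane. Osbpl7 lies on chromosome 11 from 97050628 to 97068904 on the plus strand. Its class levels were low, at 8.34 and 7.58 CPM in Leydig-like cells, 1.77 and 1.18 CPM in spermatocyte-like cells, 4.67 and 4.33 CPM in round spermatid-like cells and 9.18 and 1.44 CPM in elongating spermatid-like cells. The spermatogonia-like level of 41.8 CPM (19.1 to 79.4) came from 9 counts in 2 cells. These classes missed where the gene was high. The unnamed cluster 12, of 72 young and 182 aged cells, held 157 CPM (140 to 176) and 196 CPM (179 to 214) from 313 and 487 counts.

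Along the order Osbpl7 was 1.99 and 0.229 CPM in cluster 9, 21.1 and 17.5 CPM in cluster 13, the level just given in cluster 12, and 9.18 and 1.44 CPM in cluster 8. Along this order Osbpl7 was thus highest in a short window between round and elongating spermatids, in both libraries. In cluster 12, 84.7% of young and 73.1% of aged cells had an Osbpl7 count, and 19.4% and 32.9% after thinning, which left out 27 aged cells. The cluster had 10459 and 9510 CPM of Prm1, against 46048 and 47567 CPM in cluster 8 and 400.2 and 279.7 CPM in cluster 13. The aged over young ratio of Osbpl7 in cluster 12 was 1.25 (1.08 to 1.44).

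A further unnamed cluster, 10, was made of 3 young and 393 aged cells with a median of 1496 counts in the aged library. Osbpl7 reached 719 CPM (506 to 991) in the young cells, from 37 counts, and 1073 CPM (999 to 1151) in the aged ones, from 777 counts, and 55.7% of the aged cells had a count. Prm1 was at 7248 and 5624 CPM in that cluster. As the cluster was almost all aged and shallow, the higher Osbpl7 over the whole aged library, 22.0 against 10.9 CPM, cannot be told apart from the number of such cells.

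The promoter of Osbpl7, chr11:97050570-97050869 on the plus strand (RefSeq, GRCm38.p6), is shown because it holds the RFX core letters, as do 12.5% of all promoters. The capitals mark the RFX core as read on the opposite strand, 52 bases before the start of transcription. RFX factors are known to control genes of cilia and of spermatids. A part of them in the level of Osbpl7 was not tested.
Osbpl7: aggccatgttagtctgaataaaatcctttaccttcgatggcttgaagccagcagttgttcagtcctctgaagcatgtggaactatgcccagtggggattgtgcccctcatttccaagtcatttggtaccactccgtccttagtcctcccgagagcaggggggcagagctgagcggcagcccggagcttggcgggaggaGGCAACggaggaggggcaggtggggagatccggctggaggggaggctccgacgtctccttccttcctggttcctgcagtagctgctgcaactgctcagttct

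Osbpl3, on chromosome 6 from 50293330 to 50456201, had 52 young and 71 aged counts in all analysed cells. It was at 1.14 CPM in young Leydig-like cells and had 0 counts in the aged ones, which allows up to 1.08 CPM at 3 counts. Its highest level among Leydig-like and germ cell classes was 13.9 CPM (2.87 to 40.7) in spermatogonia-like cells, from 3 counts. In spermatocyte-like cells it had 0.746 and 1.11 CPM, with a ratio of 1.49 (0.822 to 2.82). Osbpl6, on chromosome 2 from 76406508 to 76600647, had 16 and 26 counts in all analysed cells and at most 0.632 CPM in Leydig-like cells. No class reached 50 counts of Osbpl6, so no ratio was given for it.

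Counted by size, 0 of 7 measured members were higher and 0 lower in aged Leydig-like cells, where 6.51% of the 11058 measured genes were higher and 8.52% lower. In spermatocyte-like cells 0 of 8 were higher and 4 lower (Osbpl1a, Osbpl2, Osbpl9 and Osbpl10), against 16.1% of 13721 genes higher and 7.62% lower. As given above, Osbpl2 and Osbpl9 did not keep this call when clusters were weighted equally, and the Osbpl10 interval includes 1. The spermatocyte contrast was in view when the members were chosen, so nothing is read from that count. In round spermatid-like cells 0 of 7 were higher and 1, Osbpl1a, lower, against 3.08% and 3.05% of 13153 genes. In elongating spermatid-like cells 0 of 3 were higher and 0 lower, against 2.82% and 10.2% of 4861 genes. Inside the Leydig-like clusters, which split by library, 18.6% of all measured genes were higher and 23.5% lower in cluster 1, where Osbpl7 was higher at 2.06 (0.414 to 6.29) from 65 young and 3 aged counts. In cluster 4 these shares were 16.2% and 10.1%, and Osbpl2 was higher at 1.60 (0.752 to 4.09) from 7 and 104 counts. Cluster 14 had 13.6% higher and 9.89% lower, and Osbpl9 there was within the limit at 0.726 (0.511 to 1.02). The members' median log2 ratio was 0.18 in Leydig-like cells, -0.63 in spermatocyte-like cells, -0.01 in round and 0.12 in elongating spermatid-like cells, with -0.01, 0.04, -0.01 and -0.07 over all measured genes. The spermatocyte-like median comes from that same contrast and from class ratios that moved with cluster weights, so nothing is read from it either.

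**Figure D5:**
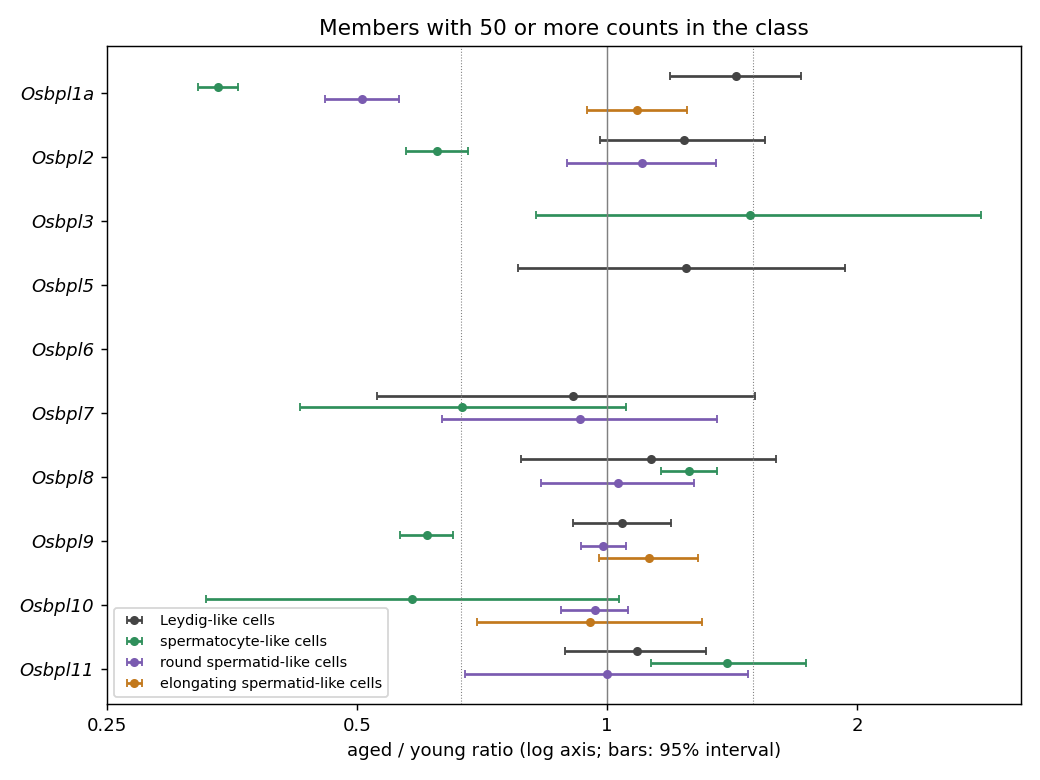
Aged over young ratio (horizontal axis, log scale) of each family member (vertical axis) in the 4 compared classes, where the class held 50 or more counts of the gene, with 95% intervals and dotted lines at 1.5-fold. Osbpl6 had too few counts in every class. Osbpl1a is at 0.340 in spermatocyte-like and 0.507 in round spermatid-like cells, and at 1.43 in Leydig-like cells.

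Between stages, where a gene was counted at 2-fold or more, the members divided in both directions. From Leydig-like to spermatocyte-like cells of the young library 2 of 7 measured members were higher (Osbpl1a and Osbpl8) and 3 lower (Osbpl5, Osbpl7 and Osbpl11), against 39.5% and 38.5% of all genes. In the aged library 1 of 6 was higher (Osbpl8) and 3 were lower (Osbpl7, Osbpl9 and Osbpl11), against 44.4% and 30.0%. From spermatocyte-like to round spermatid-like cells Osbpl7, Osbpl9 and Osbpl10 were higher in both libraries, 3 of 7 in the young (29.6% of all genes) and 3 of 8 in the aged (27.7%). Osbpl8 was lower in both and Osbpl2 in the young alone, 2 of 7 and 1 of 8, against 26.6% and 33.5%. From round to elongating spermatid-like cells Osbpl1a was the 1 of 7 higher in each library, against 11% of all genes in the young and 9.75% in the aged. Osbpl8 was lower in both, 1 of 7 in the young and, with Osbpl7, 2 of 7 in the aged, against 60.3% and 61.6%. The Osbpl7 ratio of 0.332 (0.0391 to 1.26) came from 2 counts against 52, and it turned to 7.60 with classes from each cell's marker score.

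The pattern over 9 points, the 5 classes of the aged and 4 of the young library, was set beside that of 10632 genes with at least 20 CPM in some class. The points share libraries and depth, so Pearson's r on log2(CPM + 1) is a description. For Osbpl10, whose levels differed most between classes, the most alike genes were Tmigd3, Tex26 and Spatc1l, each with r of 0.997. Osbpl8 was most like Rbm6 (0.996), Trappc8 (0.995) and Mto1 (0.994). Osbpl11 was most like Trak2 (0.997), Eml3 (0.997) and Ago1 (0.996), and Osbpl7 like Med12 (0.981), Nans (0.969) and Mrtfb (0.968). The points leave out the unnamed clusters 10 and 12, where Osbpl7 was high. Its highest point was the spermatogonia-like level, which rested on few counts, as given above. Whether these 3 genes share the pattern of Osbpl7 in the left-out clusters was not tested. For Osbpl1a no gene passed r of 0.906. Among the members themselves Osbpl2 and Osbpl8 had r of 0.83, Osbpl9 and Osbpl10 0.82, and Osbpl8 and Osbpl9 -0.87.

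Genes that work beside the family were read from 2 lists. The sterol transfer and contact site list holds 34 genes, among them the tethers Vapa and Vapb that most family members bind, the PI4P kinases and the cholesterol carriers Star and Stard3. In Leydig-like cells 33 were measured, 4 were higher in the aged library and 1 lower, beside 6.51% and 8.52% of all genes, with a median log2 ratio of 0.15 beside -0.01. Gramd1b, which returns plasma membrane cholesterol to the endoplasmic reticulum, had 542 and 979 CPM (1.81-fold, 1.72 to 1.90), Stard4, a soluble sterol carrier, 39.3 and 66.4 CPM (1.69-fold), and Esyt2, a tether to the plasma membrane, 31.8 and 51.3 CPM (1.61-fold). Osbp2, a close relative of the members, was the lower one, at 15.8 and 9.75 CPM from 125 and 27 counts. Over all analysed cells it had 198 and 171 CPM, and the protamine and transition genes in Leydig-like cells stood at 11.2% and 6.45% of their level over the library. The part of free RNA in the Osbp2 ratio was not tested.

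In spermatocyte-like cells 28 genes of this list were measured, with 2 higher and 1 lower, beside 16.1% and 7.62% of all genes. Pi4kb, a Golgi PI4P kinase, had 3.59 and 6.90 CPM and Sacm1l 1.30 and 2.17 CPM, both low, and C2cd2l 23.7 and 14.2 CPM. Rab7, which an Osbpl1a product can bind, had 27.7 and 26.1 CPM there, a ratio of 0.944 (0.853 to 1.05), named after its value was seen. In round spermatid-like cells, where 3.08% and 3.05% of all genes were higher and lower, 0 of 25 were higher and 2 lower, Star with 7.64 and 3.33 CPM and Rab7 with 6.65 and 3.41 CPM. Star is a defining gene of Leydig cells, whose marker list summed to 145 CPM in young and 37.6 CPM in aged round spermatid-like cells, and the part of free RNA in these ratios was not tested. In elongating spermatid-like cells 0 of 13 were higher and 0 lower, beside 2.82% and 10.2% of all genes. In spermatocyte-like cells Arf1 and Ptdss2 had the most counts of the list, with ratios of 0.971 and 1.01. Osbp2 was far higher in elongating spermatid-like cells, at 1099 and 1329 CPM, than in Leydig-like cells, an observation made after its values were seen.

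The oxysterol list holds 23 genes that make, sense or clear oxysterols, the ligands that gave the family its name. In Leydig-like cells 14 were measured, 1 higher and 1 lower beside 6.51% and 8.52% of all genes, with Insig1, which holds back sterol synthesis, higher at 87.8 and 168 CPM (1.92-fold, 1.7 to 2.16) and Lcat, which esterifies cholesterol, lower at 33.3 and 19.5 CPM. In spermatocyte-like cells 12 were measured, where 16.1% of all genes were higher, with the cholesterol 24-hydroxylase Cyp46a1 higher at 8.76 and 17.2 CPM (1.96-fold, 1.67 to 2.32). None of 8 in round and of 3 in elongating spermatid-like cells passed 1.5-fold. The genes of this list with the most counts were Insig2, at 173 and 167 CPM in spermatocyte-like cells, and Cyp51, at 479 and 685 CPM in Leydig-like cells (1.43-fold).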

How the data were processed

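Single cells of mouse testis were measured in 1 library per age on the BD Rhapsody system. For each library the authors deposited a table of whole-number counts by cell and gene. The aged table was made with the BD Rhapsody pipeline (1.7.1) with STAR (2.5.2b), per the file headers, while Cell Ranger 2.11 and mm10 stand in the submitters' processing notes. What a count stands for, molecule or read, is not given in the sources used here. The young table held 2771 cells (53413783 counts, none under 3215 a cell) and the aged 6823 (66390904 counts, none under 186).

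Cells under 500 counts or 200 genes, or over 25% mitochondrial counts, were dropped. Scrublet in scanpy 1.11.5 called 38 young and 121 aged doublets, which were removed. The 2000 most variable genes without the family members (Osbpl7 alone had been among them), 40 principal components and 15 neighbours gave the clusters (leidenalg 0.10.2, resolution 1). A cluster was named from fixed marker lists with at least 3 markers up, and left unnamed where weak, mixed or shallow. Counts were summed per class and library and given as CPM, with intervals from scipy 1.17.1. Coordinates are from GENCODE M21 (GRCm38), which held 98.5% of the 41061 detected gene names. Promoters come from the RefSeq table of GRCm38.p6.

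The members and lists were chosen with earlier results of these data known. All 10 members are described. Of the lists, the text names genes past 1.5-fold with 50 or more counts (at most 3 a direction and class) and the 2 with the most counts, and for the 4 members that vary most the 3 genes most like each. One gene of the lists is not reported here. Alternatives to the cell filter, doublets, resolution, class naming, clustering genes, depth, scaling, averaging and free RNA were run 1 at a time. Single clusters, equal cluster weights and the depth range were added after the data were seen. On simulated counts with these depths the 95% intervals held the true ratio in 95.5% to 95.9% of genes in the 4 classes. These counts were drawn with counting noise alone, which the intervals assume, so coverage near 95% was built in. Genes spread more widely over cells, as Osbpl1a was in aged cells of some spermatocyte-like clusters, were not simulated.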

Additional observations from a re-analysis of the deposited data

Results flagged for a closer look

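The age ratio of Osbpl1a lay below 1 in 2 germ cell classes and above 1 in Leydig-like cells. It was 0.340 in spermatocyte-like cells and 0.507 in round spermatid-like cells, and 1.43 in Leydig-like cells of the same libraries. In elongating spermatid-like cells it was 1.09 (0.945 to 1.25), and in the round spermatid-like cluster 13 alone 1.01. The difference between these ratios was not tested, since each age has 1 library. The 1.43 in Leydig-like cells is itself within the 1.5-fold limit and compares mostly cluster 1, with 1043 young and 43 aged cells, with cluster 4, with 44 and 533. Inside these clusters the ratio was 1.38 (0.684 to 2.5) and 1.44 (0.819 to 2.75).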

How the results depend on the processing

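The Osbpl1a ratio in spermatocyte-like cells stayed below 1 and past 1.5-fold under all 10 alternatives run on the whole class, from 0.259 with classes from each cell's marker score to 0.359 with the members allowed among the clustering genes. In round spermatid-like cells it reversed to 1.01 with the members allowed and in cluster 13 alone. Every measured member had the same ratio in both, so these are not separate cases. The elongating over round spermatid-like ratio of Osbpl7 in the aged library reversed to 7.60 with marker score classes. At resolution 0.5 no cluster was named elongating spermatid-like, so no value was given there.

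Counts of members past 1.5-fold were small and moved by 1 to 3. In round spermatid-like cells the lower count went from 1 to 0 with the stricter filter, resolution 0.5, the members allowed and cluster 13 alone, and the higher count from 0 to 3 at resolution 0.5, 1 at resolution 2, 1 with marker scores and 2 when thinned. In spermatocyte-like cells the higher count went from 0 to 1 with doublets kept, the members allowed, free RNA subtracted and equal weights, and the lower count from 4 to 5 at resolution 0.5, 3 when thinned, 2 with equal weights, and to 1, 2, 1 and 1 in clusters 0, 2, 6 and 7 alone. In Leydig-like cells the higher count went from 0 to 1 when thinned, with means over cells, with free RNA subtracted and in clusters 1 and 4 alone, and to 2 with equal weights, and the lower count to 1 when thinned.

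List counts were larger where rarer genes entered. For sterol transfer genes with 10 or more counts, 3, 5 and 3 were lower in spermatocyte-, round and elongating spermatid-like cells and 1 higher in the last. With 1 or more counts 2, 4, 8 and 7 were lower from Leydig-like cells on, and 3 higher in elongating ones. For oxysterol genes with 10 or more, 2 were higher and 2 lower in Leydig-like, 3 lower in spermatocyte-like, 2 higher and 3 lower in round and 2 lower in elongating cells. With 1 or more these were 4 and 4, 3 and 5, 3 and 5, and 2 and 7. Marker score classes gave sterol transfer counts of 3 lower in spermatocyte-like, 1 lower in round and 2 higher in elongating cells, and oxysterol counts of 2 higher and 0 lower in spermatocyte-like and 1 lower in elongating cells. Thinning gave sterol transfer counts of 1 higher and 0 lower in Leydig-like, 0 higher and 2 lower in spermatocyte-like and 1 higher in round cells, and oxysterol counts of 3 lower in Leydig-like, 4 higher and 0 lower in spermatocyte-like, 1 higher and 1 lower in round and 2 higher in elongating cells. Beyond fewer cells or genes entering, the cause of these moves was not tested.

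No paired analysis was possible because each age has 1 library. Free RNA, depth per cell and the share of cells from each cluster differed between the libraries together with age and cannot be told apart from it. Osbpl6 in all classes, Osbpl5 in germ cell classes and Osbpl2, Osbpl3, Osbpl7, Osbpl8 and Osbpl11 in elongating spermatid-like cells had under 50 counts and got no call on age.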
